A study of Mus musculus with 24 samples.

Results

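Semaphorins, the plexins and neuropilins that receive them, ephrins and their Eph receptors were followed in the mRNA of sorted dermal papilla (DP) cells, the mesenchymal niche at the base of the mouse hair follicle. The genes were chosen by a rule on their symbols, with earlier results of these data known. It took all genes named Sema3 to Sema7 with a letter, Plxna to Plxnd, Nrp1, Nrp2, Epha, Ephb, Efna or Efnb with a number. No measured value entered the rule itself. The rule found 53 of the 25755 genes listed. They were 7 class 3 semaphorins, 13 membrane-bound semaphorins, 2 neuropilins, 9 plexins, 9 EphA receptors, 5 EphB receptors, 5 ephrin-A ligands and 3 ephrin-B ligands. All 53 were matched to the GENCODE annotation of GRCm38, and 48 had at least 1 read in each of the 24 libraries.

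Class 3 semaphorins are secreted and most of them bind neuropilins, which pass the signal on through plexins. The other vertebrate semaphorins stay on the membrane and bind plexins directly. Ephrin-A ligands are held on the membrane by a lipid anchor and bind mainly EphA receptor kinases, ephrin-B ligands span the membrane and bind mainly EphB receptors, and contact between cells can signal into the cell that bears the ligand as well as into the cell that bears the receptor. Both systems act on the actin skeleton, and they are best known for guiding axons and blood vessels and for keeping groups of cells apart at tissue boundaries.

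DP cells of single mice were compared between controls and double mutants of the histone deacetylases Hdac1 and Hdac2 (dM1/2), with 3 mice of each genotype at P20 (telogen, the resting phase, of the first hair cycle), P24 (early anagen, the growth phase, of the second cycle), P28 (mid anagen) and P60 (telogen of the second cycle). dM1/2 mice were Cor-cre/+ with both alleles of Hdac1 and of Hdac2 floxed, and the Corin-Cre transgene is active in the DP after birth. Controls were Cor-cre/+ too and carried floxed alleles of Hdac1, Hdac2 or both, in some of the permitted genotypes with both copies of 1 of the genes floxed. The labels do not say which control had which genotype. In all groups a YFP reporter marked the Cre-positive cells, which were sorted from the back skin and then sorted again. According to the study's methods P20 mice were females, P24 and P28 mice were males and P60 mice were of either sex, so age, stage and sex cannot be told apart.

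The unit throughout is the normalized number of mRNA reads per gene (the read count divided by a factor for the depth of the library), and depth on genes ran from 8171944 to 13369732 reads per library in telogen and from 35469841 to 49331751 in anagen. Hdac1 was read beside the labels. It cannot check the label of a control, since the permitted control genotypes include both copies of Hdac1 floxed. It stood at 675, 668 and 669 normalized reads in the P24 controls and at 209, 188 and 116 in the P24 dM1/2 libraries, a log2 difference of -2.01 (limma adjusted p = 0.00167). At P28 it stood at 214, 529 and 105 in the controls and at 190, 149 and 126 in dM1/2 (limma adjusted p = 0.454). The library labelled P28 control 3 thus lay below all 3 mutants in Hdac1, and for some members P28 results are also given without it. Calls gained only without this library, or only without another P28 library, are not all named. At P20 it was 375, 511 and 505 in the controls and 216, 369.6 and 270.0 in dM1/2 (limma adjusted p = 0.122), without overlap. At P60 it was 506, 359.9 and 376 and 371, 347 and 318 (limma adjusted p = 0.986), and P60 dM1/2 1 lay above P60 control 2, so Hdac1 did not separate the P60 genotypes. Hdac2 did not pass the test at any age, and it was not examined which exons the reads came from. Of 16 DP markers, 3 were higher and 9 lower in dM1/2 at P24, and 2 were higher and 6 lower at P28. They summed to between 37940 and 45234 normalized reads in P20 controls, between 311491 and 368211 in P24 controls and between 147407 and 195386 in P24 dM1/2. At P28 the sums were 282715, 151550 and 404766 in the controls and 130603, 106345 and 122224 in dM1/2. By this sum the library labelled P28 control 3 was the highest and P28 control 2 the lowest of the P28 controls. Marker sums of other cells were lower in every library, at 189 to 886 for keratinocytes, 393 to 2787 for melanocytes, 145 to 1179 for immune cells, 128 to 886 for Schwann cells and nerve and 47 to 1397 for skeletal muscle. Dermal sheath and smooth muscle markers reached more, at 2271 to 10920. In P20 control 1 they summed to 10920 beside a DP marker sum of 45234, and in P60 control 1 to 10508 beside 33324. The library labelled P60 dM1/2 1 stood apart, with an endothelial marker sum of 5844 against 1224 to 2277 in the other P60 libraries.

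RefSeq promoters, from 250 bases before to 50 bases after a start site, were found for 47 of the 53 genes. Those of 4 genes are shown because Efna3 and Plxnc1 were the ephrin-A and the plexin that rose furthest in dM1/2 anagen, and Sema3g and Epha3 fell at both anagen ages. Capitals mark the GC box, GGGCGG or its reverse complement CCGCCC, a binding sequence of Sp-family factors. In GRCm38.p6 the 2 windows of Efna3 lie on the minus strand at chr3:89322890-89323189 and chr3:89321719-89322018, that of Plxnc1 on the minus strand at chr10:94944796-94945095, that of Epha3 on the minus strand at chr16:63864126-63864425 and that of Sema3g on the plus strand at chr14:31217623-31217922.
Efna3 start 1: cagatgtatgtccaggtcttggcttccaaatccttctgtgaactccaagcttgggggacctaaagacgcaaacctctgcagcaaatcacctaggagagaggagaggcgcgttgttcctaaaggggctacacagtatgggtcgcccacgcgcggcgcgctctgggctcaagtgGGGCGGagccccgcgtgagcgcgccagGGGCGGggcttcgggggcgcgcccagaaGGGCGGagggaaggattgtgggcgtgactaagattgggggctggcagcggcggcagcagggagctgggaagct
Efna3 start 2: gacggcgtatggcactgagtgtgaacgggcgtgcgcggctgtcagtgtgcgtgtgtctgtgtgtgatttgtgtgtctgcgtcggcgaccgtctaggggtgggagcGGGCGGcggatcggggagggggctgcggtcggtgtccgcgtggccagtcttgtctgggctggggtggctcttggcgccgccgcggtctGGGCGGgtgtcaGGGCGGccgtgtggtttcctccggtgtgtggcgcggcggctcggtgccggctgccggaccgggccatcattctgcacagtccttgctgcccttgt
Plxnc1: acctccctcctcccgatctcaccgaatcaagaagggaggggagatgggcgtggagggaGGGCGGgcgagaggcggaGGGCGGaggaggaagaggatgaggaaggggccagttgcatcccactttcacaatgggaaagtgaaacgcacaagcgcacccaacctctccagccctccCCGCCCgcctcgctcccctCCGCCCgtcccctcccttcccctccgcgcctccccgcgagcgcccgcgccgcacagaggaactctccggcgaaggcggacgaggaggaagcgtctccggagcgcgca
Epha3: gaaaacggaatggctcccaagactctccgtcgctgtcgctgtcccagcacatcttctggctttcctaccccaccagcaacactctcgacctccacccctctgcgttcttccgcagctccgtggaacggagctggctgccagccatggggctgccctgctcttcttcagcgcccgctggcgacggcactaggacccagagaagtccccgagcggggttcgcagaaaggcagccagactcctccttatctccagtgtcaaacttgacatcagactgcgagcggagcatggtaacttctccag
Sema3g: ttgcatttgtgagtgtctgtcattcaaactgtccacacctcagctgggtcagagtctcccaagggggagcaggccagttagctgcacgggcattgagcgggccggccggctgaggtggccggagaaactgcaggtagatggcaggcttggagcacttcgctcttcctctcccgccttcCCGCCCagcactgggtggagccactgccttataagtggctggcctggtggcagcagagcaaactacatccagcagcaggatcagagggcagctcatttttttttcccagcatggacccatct

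The Efna3 windows held 3 GC boxes each, the Plxnc1 window 4, the Sema3g window 1 and the Epha3 window 0. Over all members, 75.4% of 61 promoters held a GC box on either strand, against 35.7% of the 32851 promoters in the table. The share was 87.5% of 24 promoters for members that rose in dM1/2 at P24 or P28 and 61.5% of 13 promoters for members that fell, with a median of 22.5 and of 14 CG dinucleotides per window. These shares are descriptions of the sequence, and the difference between members that rose and members that fell was not tested. The 32851 promoters were not limited to genes with reads in these libraries. The same shares were not taken for all genes that rose or fell.

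The levels of the members in control DP spanned a wide range. Per kilobase of exon and averaged over the 12 control libraries, the highest levels in normalized reads per kilobase were those of the plexin Plxnb2 (849.7), the secreted Sema3b (842), the ephrin Efnb1 (619.8), the receptor Ephb4 (563), the secreted Sema3c (551) and the plexin Plxnd1 (506). At the other end, Epha5, Epha6, Epha8 and Epha10, receptors best known from the nervous system, and Plxnb3 had the lowest levels, with Epha10 at 0 in the 3 P20 controls and Epha6 at 0 in the 3 P60 controls, where a count of 0 allows up to 3 reads.

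In anagen, with all libraries fitted, members of all roles other than the neuropilins differed between the genotypes. At P24, 25 of the 53 members tested passed the threshold (limma, adjusted p under 0.05), 16 higher and 9 lower in dM1/2. Over all 14028 genes tested at P24, 26.6% passed, 14.8% higher and 11.8% lower. At P28, 22 of 49 members passed, 19 higher and 3 lower, against 35.5% of all 14126 genes, of which 20.0% were higher and 15.6% lower. These counts include Sema4f, Epha6 and Epha10 at P24 and Epha10 at P28, whose lower group had a mean under 10 normalized reads. They reached the filter on low values through the group where they were high. Epha10 is also counted below among the members higher at both ages. Without the library labelled P28 control 3 the P28 count was 29, with 21 higher and 8 lower, where 40.9% of all genes passed, and each of the 22 members kept its call. The median log2 fold change of the members was 0.03 at P24 and 0.19 at P28, beside -0.01 and 0.00 over all genes tested. In bulk RNA of sorted cells, fewer cells of a kind and less RNA per cell cannot be told apart. DP marker sums were lower in dM1/2 than in controls at both ages, with no overlap, and their part in these counts was not tested.

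Of the 49 members tested at both anagen ages, 14 were higher at both, 3 were lower at both and 0 passed in opposite directions. Of the 13806 genes tested at both ages 12.1% were higher at both, 7.97% lower at both and 0.0579% passed in opposite directions. The 14 were Sema4c, Sema4g, Sema6b, Sema6c, Sema6d, Plxna3, Plxna4, Plxnc1, Epha10, Ephb6, Efna2, Efna3, Efnb2 and Efnb3, and the 3 were Sema3g, Epha3 and Efna5. The P24 and P28 fold changes come from separate mice, had the same sign for 39 of the 49 members, beside 81.3% of all genes tested at both ages, and correlated with a Pearson r of 0.82 and a Spearman coefficient of 0.75 across these genes, which are not independent replicates. A further 6 members passed at P24 alone and 5 at P28 alone, and 21 passed at neither age. Epha5 and Epha6 passed at P24 and were under the filter on low values at P28.

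**Figure D1:**
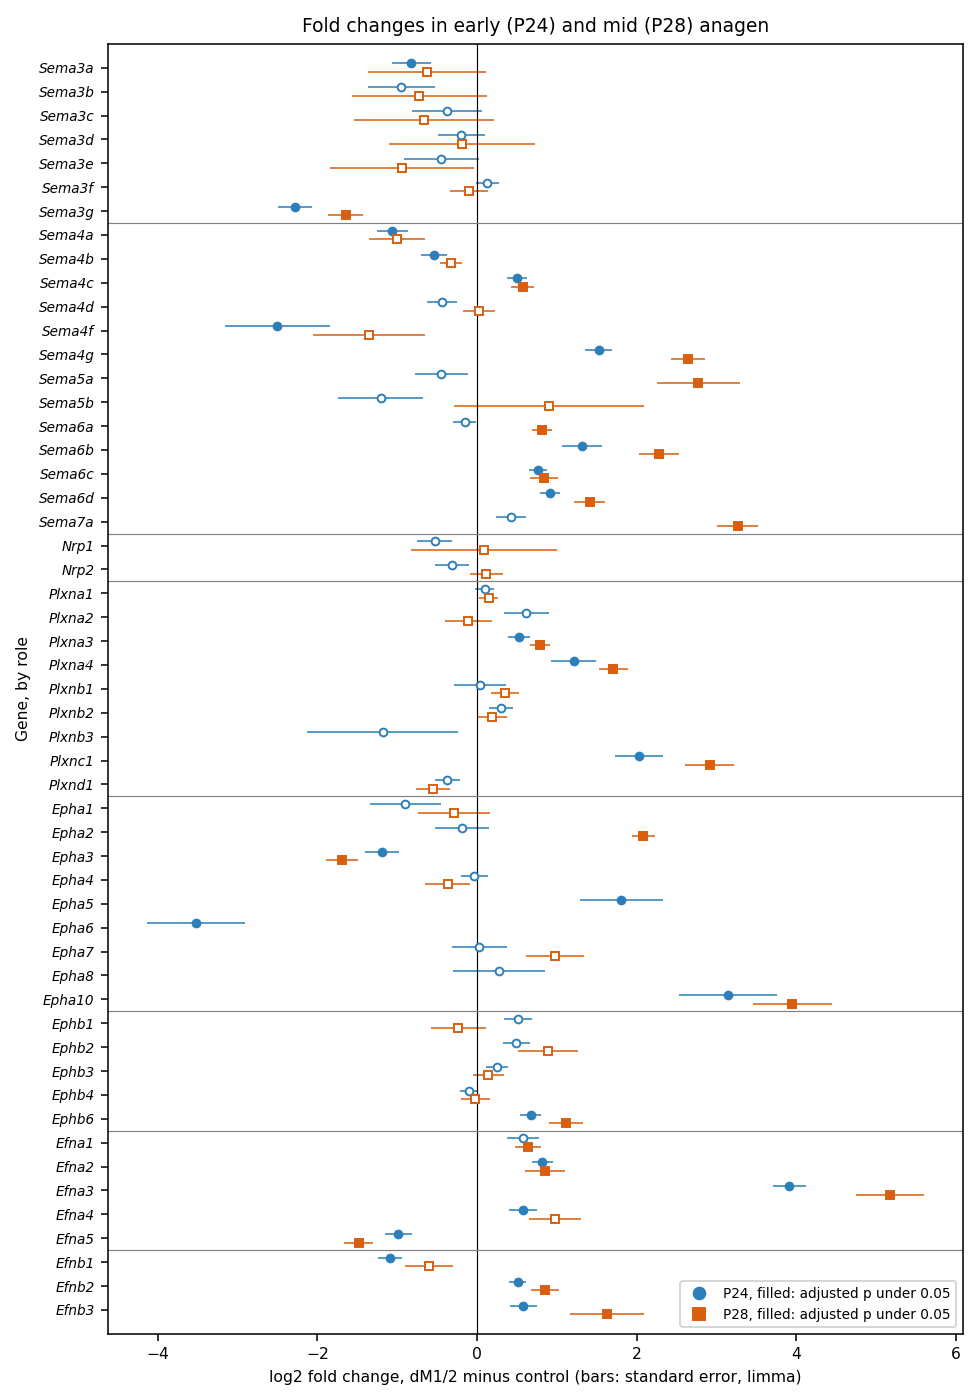
Log2 fold change (dM1/2 minus control) of the 53 genes in early anagen (P24, circles) and mid anagen (P28, squares), with the standard error of the limma fit as bars and filled symbols for an adjusted p under 0.05, from 3 libraries a group. Efna3 lies furthest to the right at both ages, at 3.91 and 5.18, while Sema3g, Epha3 and Efna5 lie left of 0 at both with filled symbols.

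Among the class 3 semaphorins, Sema3g, a secreted ligand that signals through neuropilins, was the member that fell at both ages. At P24 it stood at 1924, 1957 and 2922 normalized reads in the controls and at 561, 369.8 and 458 in dM1/2, 4.86 times lower (log2 -2.28 ± 0.21 (SE), limma adjusted p = 0.0013). At P28 it stood at 739, 692 and 705 in the controls and at 165, 240.4 and 296 in dM1/2, 3.12 times lower (log2 -1.64 ± 0.22 (SE), limma adjusted p = 0.00197). The groups did not overlap at either age, and without the library labelled P28 control 3 the P28 value was log2 -1.65 (limma adjusted p = 0.00176). The gene lies on the plus strand at chr14:31217860-31230352.

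Sema3a to Sema3e spread more widely among the P28 controls than among the P28 mutants. Sema3b, a secreted ligand with the highest level of its class in control DP, stood at 2226, 1617 and 1052 in the P24 controls and at 1278, 435 and 947 in P24 dM1/2 (log2 -0.95 ± 0.42 (SE), limma adjusted p = 0.134). At P28 it stood at 2704, 6972 and 609 in the controls and at 813, 1399.5 and 2255 in dM1/2 (log2 -0.72 ± 0.85 (SE), limma adjusted p = 0.553). The P28 controls spanned more than the whole range of the mutants, with control 2 highest and the library labelled control 3 lowest. Sema3a, Sema3c, Sema3d, Sema3e and Nrp1 had the same order among these 3 controls, and the DP marker sums the reverse order. Sema3c, for example, stood at 3689.8, 5064 and 409.9 in the P28 controls and at 1134, 1321 and 1283 in dM1/2 (log2 -0.67 ± 0.87 (SE), limma adjusted p = 0.599). Without the library labelled P28 control 3, Sema3b at log2 -1.66 (limma adjusted p = 0.0275), Sema3c at log2 -1.80 (limma adjusted p = 0.000265) and Sema3e at log2 -2.02 (limma adjusted p = 0.00649) passed the threshold. Without P28 control 2 the sign turned, to 0.09 for Sema3b and 0.01 for Sema3c. Sums of dermal sheath and smooth muscle markers had the same order in the P28 controls, at 6770, 9167 and 3288 in the P28 controls and 2271, 3462 and 5187 in dM1/2, and endothelial sums were 1578, 1037 and 229 in the P28 controls. From P24 control 1 to 2 to 3 the DP marker sums rose (311491, 336065 and 368211). Over the same libraries Sema3a to Sema3e, Nrp1 and the dermal sheath sums (8768, 6816 and 2992) all fell. The part of these markers in the class 3 values was not tested. Sema3a passed at P24 alone (log2 -0.82 ± 0.24 (SE), limma adjusted p = 0.042), from 453, 340.4 and 285 in controls and 267, 183 and 162 in dM1/2, and lost the call without P24 control 1 or 2 or without P24 dM1/2 2 or 3 (adjusted p up to 0.128).

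**Figure D2:**
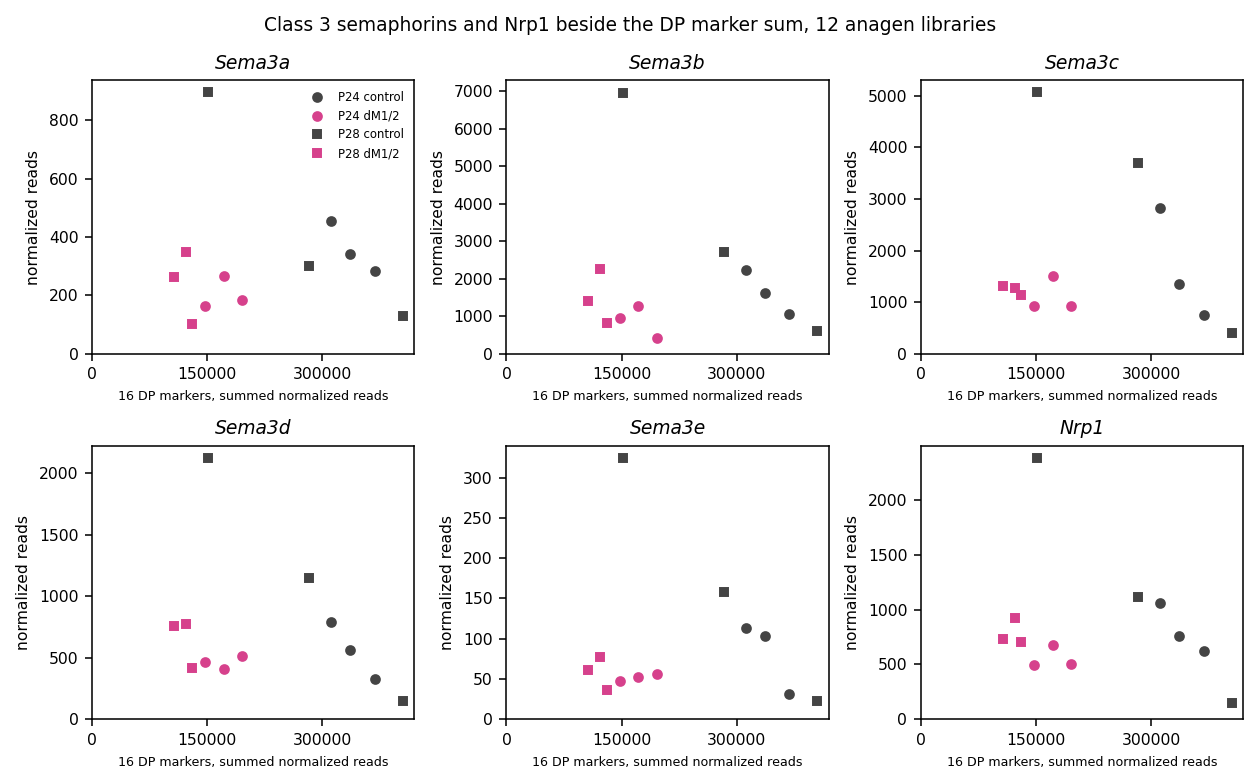
Normalized reads of Sema3a to Sema3e and of Nrp1 (vertical axes) against the summed normalized reads of 16 DP markers (horizontal axes) in the 12 anagen libraries, with circles for P24 and squares for P28, grey for controls and pink for dM1/2. P28 control 2, with a marker sum of 151550, lies highest in each panel, and the library labelled P28 control 3, with 404766, lies at the lower right.

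The neuropilins, co-receptors of class 3 semaphorins and of vascular growth factors, did not pass at either anagen age with all libraries fitted. Nrp2, the more abundant of the pair in controls, stood at 1123, 1681 and 1535 in the P24 controls and 1518, 1017 and 976 in P24 dM1/2 (limma adjusted p = 0.326). At P28 it was 1498, 2089 and 1240.1 in the controls and 1531, 1631 and 1987 in dM1/2 (limma adjusted p = 0.707), with overlap at both ages. Nrp1 at P28 was 1114, 2384 and 149 in the controls and 706, 733 and 919 in dM1/2, and all 3 mutants lay within the span of the controls. The low end of that span, 149, was the library labelled P28 control 3, and both other controls lay above all 3 mutants. The fit of Nrp1 without that library is not given here.

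Of the 13 membrane-bound semaphorins, the role with the most members, 5 were higher and 3 lower at P24, where 14.8% of all genes were higher and 11.8% lower. At P28, 8 were higher and 0 lower, where 20.0% and 15.6% of all genes were. Sema4g, a class 4 transmembrane semaphorin, rose at both ages. At P24 it stood at 282, 331 and 425 normalized reads in the controls and at 1048, 993 and 909.7 in dM1/2 (log2 1.52 ± 0.17 (SE), limma adjusted p = 0.00167). Sema4g at P28 was 198, 118 and 185 in the controls and 1014, 1065 and 994 in dM1/2, 6.25-fold higher (log2 2.64 ± 0.21 (SE), limma adjusted p = 0.000404). The lowest mutant lay above the highest control at both ages.

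The class 6 semaphorins, which can act as ligands and as receptors for class A plexins, rose as well, Sema6b, Sema6c and Sema6d at both ages and Sema6a at P28 alone. Sema6b stood at 299, 268 and 491 in the P24 controls against 879, 694 and 999 in dM1/2 (log2 1.32 ± 0.25 (SE), limma adjusted p = 0.0086). At P28 its controls were at 165, 125 and 232 and its mutants at 897, 931 and 662 (log2 2.28 ± 0.26 (SE), limma adjusted p = 0.00109). Both differences were free of overlap. Sema6d, a ligand of Plxna1 and Plxna4, stood at 749, 985 and 768 in the P28 controls and at 2806, 2085 and 1836 in dM1/2 (log2 1.41 ± 0.19 (SE), limma adjusted p = 0.00217), after 660.4, 592 and 557 and 1034, 1151 and 1217 at P24 (log2 0.91 ± 0.12 (SE), limma adjusted p = 0.00289). Sema6c changed less, from 615, 583 and 579 in P24 controls to 1103, 1013 and 912 in dM1/2 (log2 0.76 ± 0.12 (SE), limma adjusted p = 0.0041) and by log2 0.84 at P28. The class 4 member Sema4c, a ligand of Plxnb2 that shares 7.3% of its exonic bases with the antisense gene D430040D24Rik, was called higher at both ages by log2 0.50 at P24 and 0.57 at P28, and lost the call at P24 without control 1 or 2 or dM1/2 1 or 3 (adjusted p up to 0.0828) and at P28 without control 1 or dM1/2 1 or 3 (up to 0.0772).

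At P28, but not at P24, 3 further membrane-bound semaphorins passed. Sema7a, a lipid-anchored semaphorin that binds Plxnc1 and integrins, stood at 57.0, 70.5 and 41.7 in the P28 controls and at 430.3, 546 and 668 in dM1/2, 9.62-fold higher (log2 3.27 ± 0.26 (SE), limma adjusted p = 0.000401). At P24 it was 179, 137 and 184 in the controls and 215, 197 and 259 in dM1/2 (log2 0.43 ± 0.19 (SE), limma adjusted p = 0.132), a smaller difference that did not pass although the groups did not overlap. Sema5a, a transmembrane semaphorin with thrombospondin repeats, stood at 1072, 1928 and 413 in the P28 controls and at 5189, 8036 and 6510.0 in dM1/2, 6.82-fold higher (log2 2.77 ± 0.52 (SE), limma adjusted p = 0.00734). Neither gene had a P28 mutant within the range of the controls. At P24 Sema5a was 3176, 1770.3 and 4992 in the controls and 2332, 2204 and 2148 in dM1/2, inside the control range (log2 -0.45 ± 0.33 (SE), limma adjusted p = 0.357). The library labelled P28 control 3 held the lowest Sema5a value, and without it the P28 difference was log2 2.17 (limma adjusted p = 0.000903). Sema6a was 742, 601 and 597 in the P28 controls and 1147, 1103 and 1133 in dM1/2 (log2 0.81 ± 0.13 (SE), limma adjusted p = 0.00363), and at P24 it was 970.3, 1065 and 1313 and 1067, 1028 and 897 (log2 -0.15 ± 0.15 (SE), limma adjusted p = 0.477).

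Of the membrane-bound semaphorins that fell at P24, Sema4a, a class 4 semaphorin known from immune cells and vessels, stood at 144, 122 and 134 in the controls and at 67.6, 70.8 and 53.1 in dM1/2 (log2 -1.06 ± 0.20 (SE), limma adjusted p = 0.00844), and at P28 at 100.0, 86.5 and 135 and 72.9, 32.6 and 59.8 (limma adjusted p = 0.0645). Sema4b was 821, 756 and 688 in the P24 controls and 434, 507 and 629.7 in dM1/2 (log2 -0.54 ± 0.16 (SE), limma adjusted p = 0.0434). Its P24 call was lost without control 1 or 2 or dM1/2 1 or 2 (adjusted p up to 0.135). Sema4f, a class 4 member at a low level, was 20.5, 39.2 and 33.4 in the P24 controls and 9.81, 1.14 and 6.09 in dM1/2 (log2 -2.50 ± 0.66 (SE), limma adjusted p = 0.029), so it passed the filter on low values through the controls. The call for Sema4f was lost without control 2 or 3 or dM1/2 3 (adjusted p up to 0.111).

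**Figure D3:**
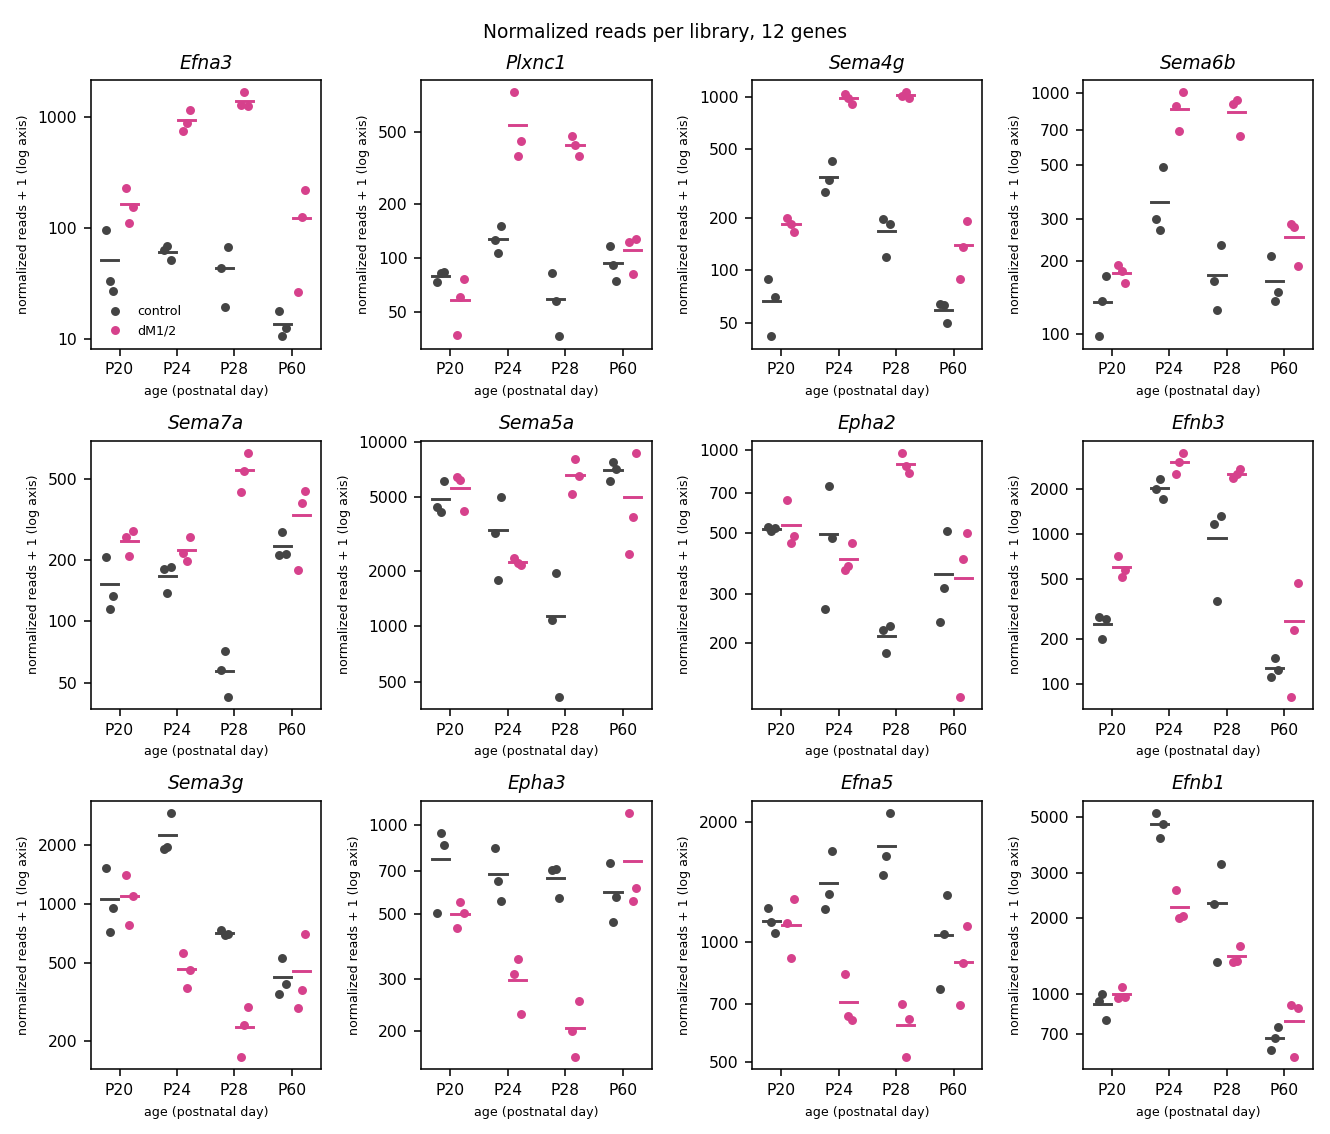
Normalized reads plus 1 (logarithmic vertical axes) of 12 genes in each library by postnatal day, grey for controls and pink for dM1/2, with a bar at the mean of 3 libraries. Efna3, Plxnc1, Sema4g, Sema6b, Sema7a and Efnb3 were higher in all dM1/2 libraries than in all controls at P24 and P28, Sema5a and Epha2 at P28 only of these ages, and Sema3g, Epha3 and Efna5 were lower at both.

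Among the plexins, Plxnc1, the receptor of Sema7a, rose furthest. It stood at 125, 106 and 149 normalized reads in the P24 controls and at 832, 369 and 447 in dM1/2, 4.09-fold higher (log2 2.03 ± 0.30 (SE), limma adjusted p = 0.00378). The P28 values were 81.3, 57.0 and 35.6 in the controls and 478, 425 and 367 in dM1/2, 7.54-fold higher (log2 2.92 ± 0.31 (SE), limma adjusted p = 0.000903), and log2 2.61 (limma adjusted p = 0.000173) without the library labelled P28 control 3. The lowest dM1/2 library exceeded the highest control at both ages. The gene is on the minus strand at chr10:94790866-94944835.

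The class A plexins, the usual signalling partners of neuropilins and of class 6 semaphorins, gave smaller differences. Plxna4 stood at 237, 238 and 219 in the P28 controls and at 584, 817 and 904 in dM1/2 (log2 1.71 ± 0.18 (SE), limma adjusted p = 0.000966), after 174, 289.7 and 149 and 402, 601 and 389 at P24 (log2 1.21 ± 0.28 (SE), limma adjusted p = 0.0182). Its P24 call was lost without P24 control 1 or P24 dM1/2 2 (adjusted p up to 0.0604). Plxna3 was 554, 465 and 580.2 in the P28 controls and 909, 869.9 and 978 in dM1/2 (log2 0.79 ± 0.13 (SE), limma adjusted p = 0.00444). At P24 it was 657, 661 and 844 and 1136, 995 and 968 (log2 0.52 ± 0.14 (SE), limma adjusted p = 0.0306), a call that held only without P24 control 3 among the fits that left out 1 library (adjusted p up to 0.113). No other plexin passed at P24 or P28. Plxnb2, the plexin with the most reads and a receptor of Sema4c, was 7608, 6057 and 9178 in the P28 controls and 8201, 8577 and 8834 in dM1/2 (limma adjusted p = 0.484), well within the span of the controls. Plxnd1, the endothelial receptor of Sema3e, was 4649, 3323 and 5828 and 3349, 2891 and 2968 (log2 -0.55 ± 0.21 (SE), limma adjusted p = 0.0892).

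The EphA receptors moved in both directions. Epha3, a receptor of ephrin-A ligands, fell at both ages. It stood at 836, 646 and 553 normalized reads in the P24 controls and at 313, 350.0 and 229 in dM1/2, 2.28 times lower (log2 -1.19 ± 0.21 (SE), limma adjusted p = 0.00716). At P28 it was 702, 708 and 564 in the controls and 199.6, 163 and 253 in dM1/2, 3.23 times lower (log2 -1.69 ± 0.20 (SE), limma adjusted p = 0.00122). No mutant reached the lowest control. Epha2, a receptor best known from epithelial cells, passed at P28 alone, from 221, 182 and 228 in the controls to 976, 872 and 827 in dM1/2, 4.23-fold higher (log2 2.08 ± 0.14 (SE), limma adjusted p = 0.000297). At P24 its controls, at 265, 742 and 479, spanned more than the mutants, at 367, 379 and 460.3 (log2 -0.18 ± 0.34 (SE), limma adjusted p = 0.731).

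Epha10, a member without an active kinase, was close to 0 in the controls, at 1.55, 2.01 and 9.53 at P24 and 1.74, 5.76 and 6.07 at P28. In dM1/2 it stood at 30.2, 41.1 and 41.6 at P24 (log2 3.15 ± 0.61 (SE), limma adjusted p = 0.00965) and at 61.4, 111 and 67.8 at P28 (log2 3.95 ± 0.49 (SE), limma adjusted p = 0.00157). It passed the filter on low values at both ages through the mutants alone. Epha6 had the reverse pattern at P24, with 62.7, 105 and 23.4 in the controls and 4.72, 5.33 and 2.03 in dM1/2 (log2 -3.52 ± 0.62 (SE), limma adjusted p = 0.00654), and passed the filter through the controls. Epha5 was 11.6, 9.04 and 32.1 in the P24 controls and 80.3, 56.4 and 37.5 in dM1/2 (log2 1.81 ± 0.52 (SE), limma adjusted p = 0.0374), and among the fits that left out 1 library it was called only without P24 control 3 (adjusted p up to 0.125). Epha4, a receptor of both ephrin classes and the EphA with the most reads, did not pass, with 3167, 1944 and 4293 in the P28 controls and 2643, 2164 and 2146 in dM1/2 (limma adjusted p = 0.354).

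Of the EphB receptors, Ephb6, which lacks kinase activity, was the member that passed in anagen. It stood at 1799, 1883 and 2168 in the P24 controls and at 3253, 2749.7 and 3347 in dM1/2 (log2 0.68 ± 0.13 (SE), limma adjusted p = 0.00964). Ephb6 at P28 was 1231, 1175 and 1912 in the controls and 3419, 3028 and 2707 in dM1/2 (log2 1.11 ± 0.21 (SE), limma adjusted p = 0.00741), again without overlap. Ephb4, the partner of ephrin-B2 in vessels and the EphB with the most reads, was 3077, 2196 and 3463 in the P28 controls and 2766, 2883 and 2795 in dM1/2 (limma adjusted p = 0.936), and all mutants lay within the control range.

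Efna3, a lipid-anchored ephrin-A, had the largest fold change of the members tested at both anagen ages. It stood at 61.9, 68.3 and 50.0 normalized reads in the P24 controls (60.1 ± 9.27, mean ± SD, n = 3) and at 738, 885 and 1151 in dM1/2 (925 ± 209.5), 15.0-fold higher (log2 3.91 ± 0.21 (SE), limma adjusted p = 0.000378). At P28 it was 42.2, 18.6 and 65.6 in the controls and 1286, 1652 and 1249 in dM1/2, 36.1-fold higher (log2 5.18 ± 0.43 (SE), limma adjusted p = 0.000439). The lowest mutant was more than 10 times the highest control at both ages, and without the library labelled P28 control 3 the difference was log2 5.57 (limma adjusted p = 4.69e-05). The gene lies on the minus strand at chr3:89313899-89322965, and 14.1% of its exonic bases are shared with the antisense gene Gm15998. Since the strand setting of the counting is not given in the sources used here, reads of these genes cannot be told apart.

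Efna1 and Efna4, the ephrin-A genes on either side of Efna3 on chromosome 3, lie 32.8 kb and 10.4 kb from it. Efna4, which shares 10.5% of its exonic bases with an antisense gene, stood at 155, 181 and 146 in the P24 controls and at 258, 197 and 267 in dM1/2 (log2 0.58 ± 0.18 (SE), limma adjusted p = 0.0499), and at 130.5, 74.3 and 174 and 199, 284 and 231 at P28 (log2 0.98 ± 0.33 (SE), limma adjusted p = 0.0561), where it passed without the library labelled P28 control 3 at log2 1.25 (limma adjusted p = 0.0105). Efna1 was 178, 198 and 209 in the P28 controls and 262, 355 and 298 in dM1/2 (log2 0.64 ± 0.17 (SE), limma adjusted p = 0.0242), and 172, 183 and 143 and 248, 198 and 304 at P24 (log2 0.58 ± 0.20 (SE), limma adjusted p = 0.0705). With all libraries, both neighbours differed by less than 1 on the log2 scale where Efna3 differed by 3.91 and 5.18. The P24 call of Efna4 held only without dM1/2 2 among the fits that left out 1 library (adjusted p up to 0.15), and the P28 call of Efna1 was lost without control 1 or dM1/2 2 or 3 (up to 0.0929).

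Efna5, the ephrin-A with the most reads in controls, fell. It stood at 1212, 1315 and 1685 in the P24 controls and at 829.8, 650.5 and 636 in dM1/2 (log2 -0.99 ± 0.17 (SE), limma adjusted p = 0.00596). Its P28 levels were 1469, 1639.5 and 2104 in the controls and 699.8, 514 and 641 in dM1/2, 2.80 times lower (log2 -1.48 ± 0.18 (SE), limma adjusted p = 0.00148). All mutants lay below all controls at both ages. Efna2 was called higher by log2 0.81 at P24 and 0.85 at P28, and the P28 call was lost without control 1 or any of the dM1/2 libraries (adjusted p up to 0.119).

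The ephrin-B ligands differed from each other. Efnb1, a ligand known for boundaries between groups of cells and the ephrin with the highest level in control DP, stood at 5187, 4149 and 4695 in the P24 controls and at 2568, 2001 and 2036 in dM1/2, 2.13 times lower (log2 -1.09 ± 0.15 (SE), limma adjusted p = 0.00294). At P28 it was 2262, 1346 and 3278 in the controls and 1347, 1357 and 1554 in dM1/2, where P28 control 2 lay below all 3 mutants (log2 -0.60 ± 0.30 (SE), limma adjusted p = 0.168). Efnb2, a ligand known from arteries, was 918, 675 and 975 in the P28 controls and 1723, 1357 and 1507 in dM1/2 (log2 0.85 ± 0.18 (SE), limma adjusted p = 0.0103), and 1236, 1236 and 1325 and 1681, 1899.6 and 1831 at P24 (log2 0.51 ± 0.11 (SE), limma adjusted p = 0.0126). Its P24 call was lost without P24 control 2 (adjusted p = 0.0585). Efnb3, a ligand known from the midline of the nervous system, stood at 1164, 359 and 1321 in the P28 controls and at 2379, 2533 and 2719 in dM1/2 (log2 1.63 ± 0.47 (SE), limma adjusted p = 0.0333), and at 2015, 2339 and 1725 and 2529, 3037 and 3518 at P24 (log2 0.58 ± 0.17 (SE), limma adjusted p = 0.0395). Mutants of Efnb3 were above all controls at both ages. The call was lost without P28 dM1/2 1, 2 or 3 at P28 (adjusted p up to 0.1), and at P24 it held only without dM1/2 1 (up to 0.112).

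**Figure D4:**
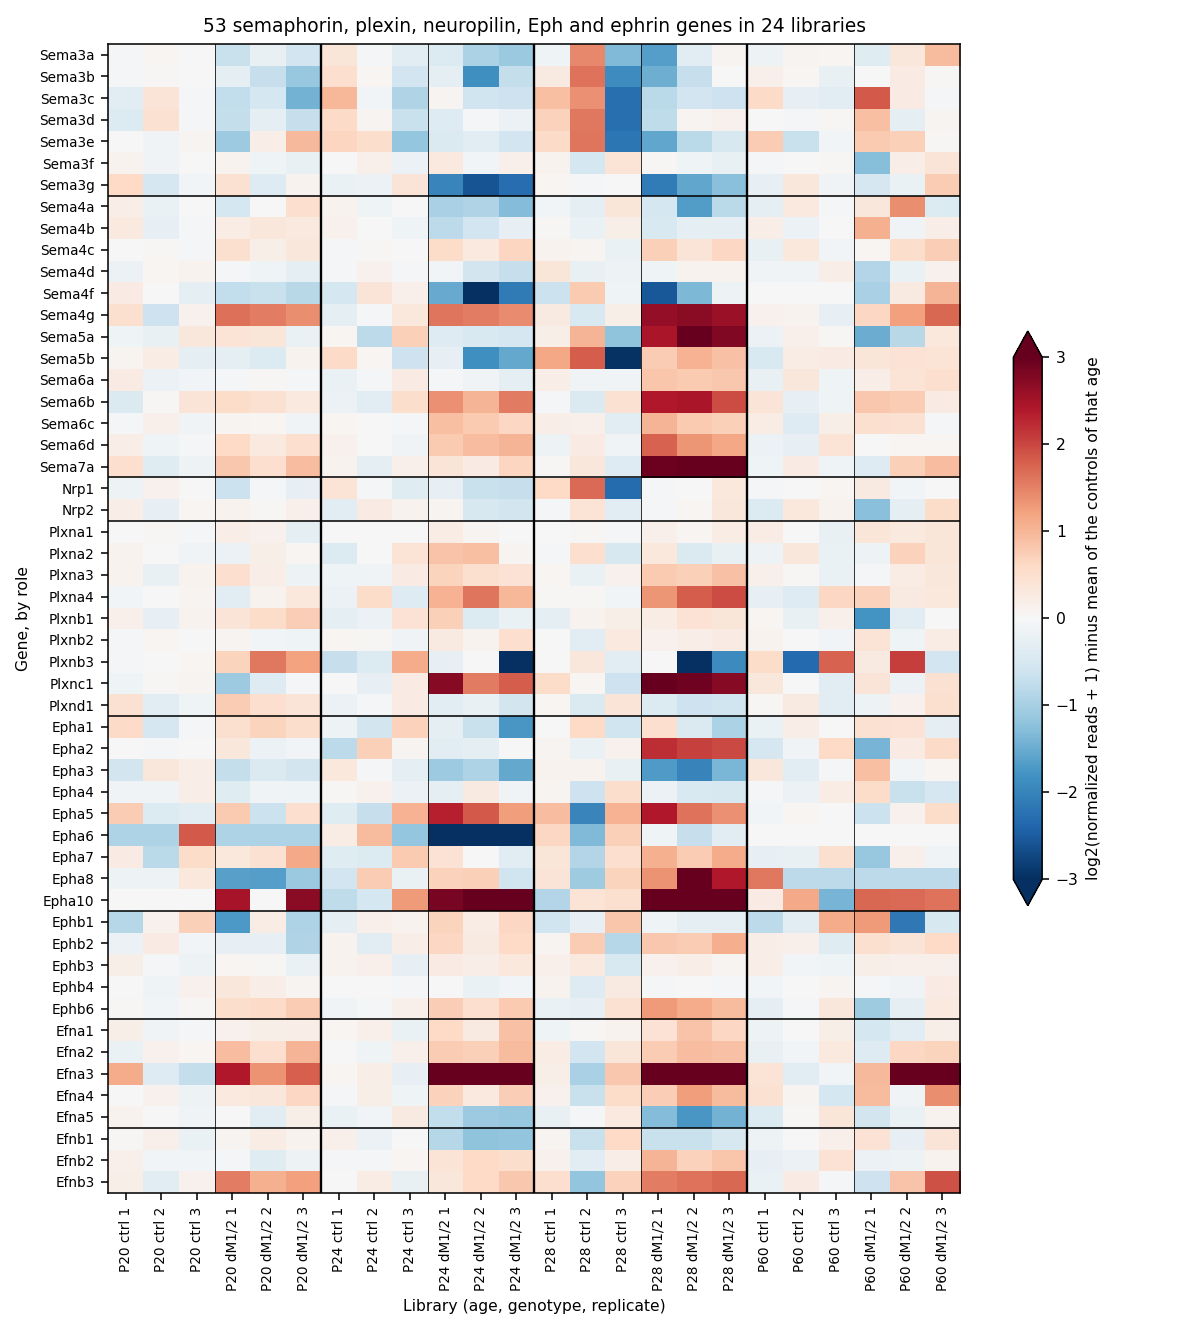
Each row is a gene, grouped by role between the horizontal lines, and each column a library, grouped by age and genotype. Colour gives log2(normalized reads + 1) minus the mean of the 3 controls of the same age, red for higher and blue for lower, limited to between -3 and 3. Efna3, Epha10, Plxnc1 and Sema4g are red in all P24 and P28 dM1/2 libraries, and Sema3a to Sema3e differ in opposite directions in P28 control 2 and the library labelled P28 control 3.

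In telogen few members differed. At P20, 1 of 49 members passed (limma), higher in dM1/2, where 0.433% of all genes passed, 0.354% higher and 0.0795% lower, and 17 members had an unadjusted p under 0.05, as did 19.8% of all genes. The member was Efnb3, at 279, 197 and 269.6 normalized reads in the controls and 714, 516 and 575 in dM1/2, 2.42-fold higher (log2 1.28 ± 0.18 (SE), limma adjusted p = 0.035), with all mutants above all controls. Its call was lost without P20 control 2 or 3 or any P20 dM1/2 library (adjusted p up to 0.137), and without P20 control 1 a total of 11 members passed, in a fit where 11.1% of all genes did. Efna3 stood at 93.7, 32.5 and 25.8 in the P20 controls and at 229.7, 111 and 152 in dM1/2 (log2 1.84 ± 0.47 (SE), limma adjusted p = 0.0984), without overlap. Sema4g was 88.4, 40.6 and 68.8 in the P20 controls and 200.1, 184 and 166 in dM1/2 (log2 1.53 ± 0.29 (SE), limma adjusted p = 0.0578), again with all mutants above the controls.

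At P60, 0 of 48 members passed, where 0.0% of all genes did (limma). At this age 4 members and 3.74% of all genes had an unadjusted p under 0.05, and edgeR called 0 and DESeq2 called 1. Efna3 stood at 16.8, 9.53 and 11.5 in the controls and at 25.2, 123 and 217 in dM1/2 (log2 2.75 ± 0.74 (SE), limma adjusted p = 0.986), and Sema4g at 63.0, 62.0 and 48.4 and 88.4, 136 and 193 (log2 1.19 ± 0.33 (SE), limma adjusted p = 0.986). Both genes were higher in each P60 mutant than in each P60 control, and the library labelled P60 dM1/2 1, which stood apart in its markers, held the lowest mutant value of both. Efnb3 was 109, 148 and 122 in the controls and 80.8, 229 and 471 in dM1/2, with dM1/2 1 below the controls.

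Whether the dM1/2 difference itself differed between anagen and telogen was tested over all 24 libraries. It was more positive in anagen than in telogen for 13 members and more negative for 8, together 21 of 51 tested (limma), where 30.2% of all genes passed, 16.1% higher and 14.1% lower. Plxnc1 gave the most positive difference of effects (log2 2.62 ± 0.32 (SE), limma adjusted p = 1.76e-05). In telogen its P20 values were 72.3, 81.2 and 83.2 in the controls and 36.4, 59.8 and 75.8 in dM1/2, and its P60 values 115, 90.6 and 73.8 and 121, 80.5 and 127. These telogen groups overlapped, whereas the anagen groups did not. Efna3 (log2 2.25 ± 0.59 (SE), limma adjusted p = 0.00674), Sema6b (log2 1.28 ± 0.27 (SE), limma adjusted p = 0.00147) and Plxna4 (log2 1.23 ± 0.27 (SE), limma adjusted p = 0.00178) were also more positive in anagen. Among the called members Sema3g had the most negative difference of effects (log2 -2.01 ± 0.31 (SE), limma adjusted p = 0.000135), with telogen values of 1529, 719.6 and 955 in P20 controls, 1403, 783 and 1099 in P20 dM1/2, 348, 531 and 389.6 in P60 controls and 295, 362 and 701 in P60 dM1/2. Epha3 (log2 -1.31 ± 0.27 (SE), limma adjusted p = 0.00119), Efna5 (log2 -1.11 ± 0.21 (SE), limma adjusted p = 0.000552) and Efnb1 (log2 -1.01 ± 0.23 (SE), limma adjusted p = 0.00231) were more negative in anagen too. Depth and sex differ along with stage, so their part in these differences cannot be told apart.

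From P24 to P28 the mutants and the controls changed differently for 3 members. In controls 2 of 51 members passed between these ages, both lower at P28, where 1.46% of all genes passed, 0.723% higher and 0.738% lower: Sema3g (log2 -1.64 ± 0.18 (SE), limma adjusted p = 0.0268) and Sema7a (log2 -1.56 ± 0.26 (SE), limma adjusted p = 0.0479). Sema7a lost this call without any 1 of the 6 libraries (adjusted p up to 0.155), and Sema3g without P24 control 1 or 2 or P28 control 1 or 2 (up to 0.107). In dM1/2, 8 of 50 members passed, where 2.67% of all genes did, 1.69% higher and 0.983% lower. Higher at P28 were Sema5a by log2 1.54, Sema7a by 1.28, Epha2 by 1.15 and Sema6d by 0.96, and lower were Epha5 by log2 -2.03, Epha7 by -1.42, Ephb1 by -0.86 and Efnb1 by -0.63. Of these 8, Sema5a and Epha2 kept the call without each library in turn, and the count was 3 without P24 dM1/2 1, 2 without P28 dM1/2 2 and 5 without P28 dM1/2 3, where 0.94%, 0.406% and 1.02% of all genes passed. The difference between the changes passed for Sema7a (log2 2.84 ± 0.32 (SE), limma adjusted p = 0.00919), Epha2 (log2 2.27 ± 0.41 (SE), limma adjusted p = 0.0379) and Sema6a (log2 0.96 ± 0.19 (SE), limma adjusted p = 0.0497), 3 of 52 members, where 0.707% of all genes passed, 0.453% higher and 0.255% lower. Sema7a kept this call without each library in turn. Epha2 lost it without P24 control 3, P28 control 1 or any dM1/2 library (adjusted p up to 0.125), and Sema6a kept it only without P28 control 1 (up to 0.137).

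Many members also differed between stages of the hair cycle in control DP. Between the 6 anagen and the 6 telogen controls, 32 of 50 members passed, 18 higher and 14 lower in anagen, where 45.6% of all genes passed, 23.8% higher and 21.9% lower. Age, sex and depth differ between these controls as well and cannot be told apart from stage. Cell markers also differed. Of 16 DP markers 14 were higher and 1 lower in anagen (median log2 3.24), and of 6 dermal sheath and smooth muscle markers 3 were lower and 0 higher (median log2 -1.21). The latter summed to between 2992 and 9167 normalized reads in anagen controls and between 7813 and 10920 in telogen controls. Their part in the values of the members was not tested. The neuropilins fell. Nrp2 stood at 5343, 3961 and 4864 in the P20 controls and 4039, 6639.9 and 5759 in the P60 controls, far above its P24 and P28 values (log2 -1.74 ± 0.17 (SE), limma adjusted p = 2.97e-05). Nrp1 stood at 2261, 2751 and 2541 at P20 and 3690.1, 3789 and 3926 at P60, against 1059.7, 762 and 623 at P24 and 1114, 2384 and 149 at P28 (log2 -2.01 ± 0.51 (SE), limma adjusted p = 0.0086), and P28 control 2 lay above P20 control 1. Of the 7 class 3 semaphorins, 3 were lower in anagen and 1 was higher. Lower were the neuropilin ligands Sema3a (log2 -1.96 ± 0.36 (SE), limma adjusted p = 0.0013), Sema3b (log2 -1.46 ± 0.46 (SE), limma adjusted p = 0.0223) and Sema3c (log2 -1.67 ± 0.56 (SE), limma adjusted p = 0.0297). The ligand Sema3g was higher, by log2 0.83 to 1.1 without each library in turn, and kept the call in each of these fits. In P28 control 2, Sema3b (6972) and Sema3c (5064) lay within the range of the telogen controls. The call of Sema3b was lost without P24 control 3 (adjusted p = 0.0513), and that of Sema3c without P20 control 2 or 3, P24 control 2 or 3 or P60 control 1 (up to 0.0685).

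The 18 members higher in anagen held 3 EphA receptors, 3 EphB receptors, 4 ephrin-A ligands and 2 ephrin-B ligands. They also held 1 class 3 semaphorin, 3 membrane-bound semaphorins and 2 plexins. The 14 lower in anagen held 3 class 3 semaphorins, 5 membrane-bound semaphorins, 2 neuropilins, 2 plexins and 2 EphB receptors. These EphB receptors were Ephb2 (log2 -1.05 to -0.64 without each library in turn) and Ephb3 (-0.61 to -0.43). Efnb1 stood at 937, 1004 and 794 in the P20 controls and 605, 674 and 745 in the P60 controls, 4.05-fold lower than in anagen (log2 2.02 ± 0.18 (SE), limma adjusted p = 1.65e-05). Efnb3 differed by 7.28-fold in the same direction (log2 2.86 ± 0.28 (SE), limma adjusted p = 2.99e-05). Ephb1, a receptor of ephrin-B ligands, was 21.4, 43.3 and 66.0 at P20 and 21.0, 28.6 and 80.7 at P60, and rose to 439, 591 and 566 at P24 and 323, 409 and 867 at P28 (log2 3.70 ± 0.37 (SE), limma adjusted p = 3.91e-05). The EphA receptors Epha7 (log2 1.94 ± 0.33 (SE), limma adjusted p = 0.000861) and Epha4 (log2 0.99 ± 0.17 (SE), limma adjusted p = 0.000923) and the ligand Efna4 (log2 1.60 ± 0.23 (SE), limma adjusted p = 0.00034) were higher in anagen as well. Epha7 in P28 control 2, at 239.5, lay within the range of the telogen controls. The dM1/2 libraries at P24 and P28 held levels of Ephb1, Epha7 and Epha4 that did not pass against their controls at either age, except that Epha7 passed at P28 without the library labelled P28 control 3 (log2 1.23 (limma adjusted p = 0.0205)). Between the telogen ages, 9 of 48 members passed in controls, where 12.6% of all genes did (6.12% higher and 6.45% lower), with Nrp1 higher at P60 (log2 0.60 ± 0.12 (SE), limma adjusted p = 0.0155) and 8 lower, among them Sema3f (log2 -0.98 ± 0.13 (SE), limma adjusted p = 0.00187) and Sema3b (log2 -1.03 ± 0.14 (SE), limma adjusted p = 0.00194), which kept the call without each library in turn. Nrp1 lost it without P20 control 3 or P60 control 2 (adjusted p up to 0.0776), and the count was 3 without P20 control 3 and 5 without P60 control 2, where 3.78% and 5.48% of all genes passed.

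**Figure D5:**
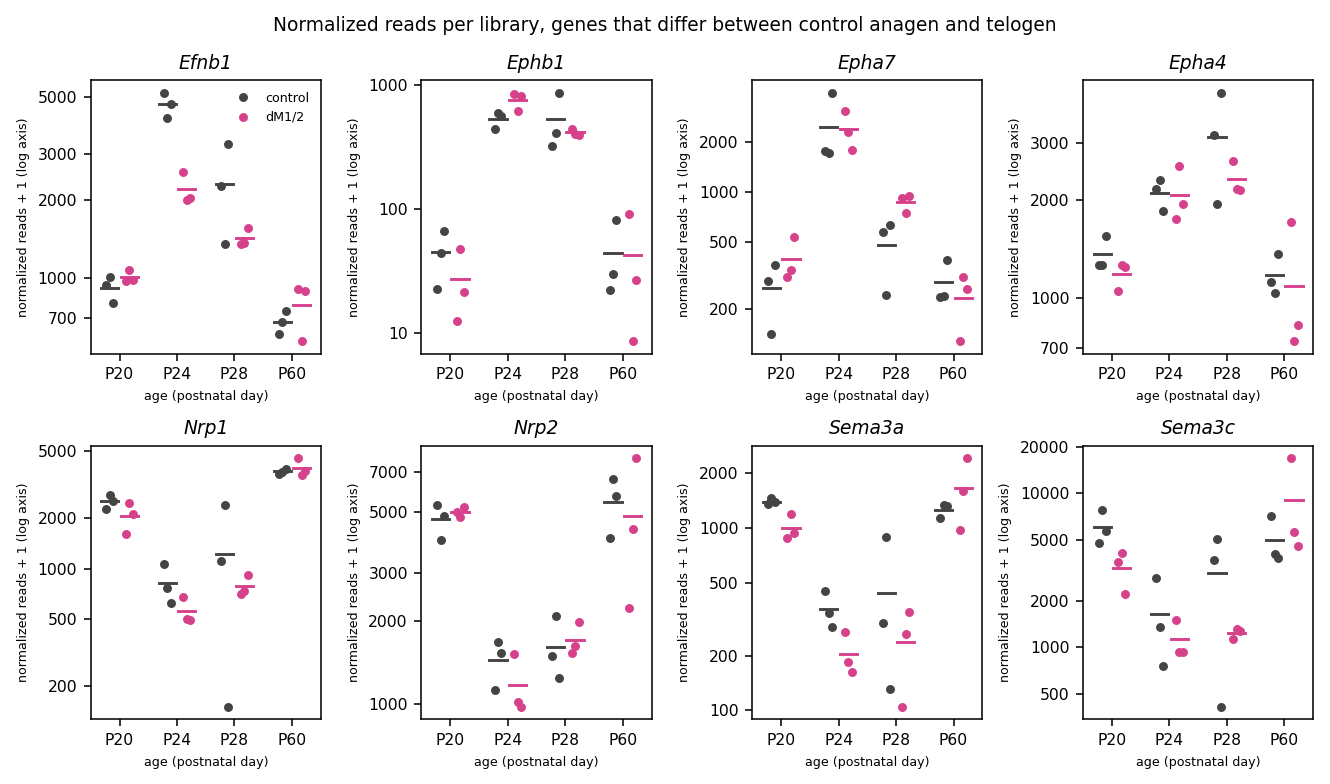
Normalized reads plus 1 (logarithmic vertical axes) of 8 genes in each library by postnatal day, grey for controls and pink for dM1/2, with a bar at the mean of 3 libraries. By the fit, Efnb1, Ephb1, Epha7 and Epha4 are higher and Nrp1, Nrp2, Sema3a and Sema3c lower in control anagen (P24, P28) than in control telogen (P20, P60). The P28 controls are wide apart for Nrp1, Sema3a and Sema3c. P28 control 2 lies within the range of the telogen controls for Epha7 (239.5), Nrp1 (2384) and Sema3c (5064).

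Lists of other genes of the pathways were read by counts beside the members. None of their genes passed at P20 or P60. Of 10 semaphorin co-receptors, 8 were tested at P28, and 1 was higher and 2 were lower, as at P24, a share of 37.5% at each age. L1cam, an adhesion molecule of axons that joins neuropilin complexes, rose (log2 2.30, limma adjusted p = 0.00153), while the integrin subunits Itga1 (log2 -0.93, limma adjusted p = 0.00795) and Itgb1 (log2 -0.60, limma adjusted p = 0.0421), a receptor of Sema7a, fell. Of 24 plexin effectors, 4 were higher and 2 lower at P24, and 2 were higher and 3 lower at P28. The share called, 25.0% at P24 and 20.8% at P28, stood below that of all genes at both ages (26.6% and 35.5%). Crmp1 (log2 3.21, limma adjusted p = 0.000565) and Dpysl5 (log2 2.33, limma adjusted p = 0.00882), members of the collapsin response mediator family, rose at P28, and the small GTPase Rnd3 (log2 -1.55, limma adjusted p = 0.00587) and the kinase Fes (log2 -1.18, limma adjusted p = 0.0102) fell.

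Of 31 Eph and ephrin effectors, 6 of 30 tested were higher and 3 lower at P24, and 7 of 29 were higher and 6 lower at P28, shares of 30.0% and 44.8%. Ngef, an exchange factor bound by EphA receptors (log2 2.54, limma adjusted p = 0.00492), and Chn1, a Rac regulator downstream of Epha4 (log2 1.62, limma adjusted p = 0.0330), rose at P28. The ephrin-B adaptor Pick1 (log2 -1.84, limma adjusted p = 0.00302) and the kinase subunit Pik3r1 (log2 -1.74, limma adjusted p = 0.00363) fell. Of 23 genes of other guidance families, 20 were tested, and 1 was higher and 6 lower at P24 and 0 were higher and 9 lower at P28, with a median log2 of -0.57 and -0.77 and shares called of 35.0% and 45.0%. The largest falls at P28 were those of the netrin receptor Dcc (log2 -1.82, limma adjusted p = 0.00861) and the Slit receptor Robo1 (log2 -1.72, limma adjusted p = 0.00457). Among the semaphorin, plexin, Eph and ephrin genes themselves 19 were higher and 3 lower at that age. The difference between these lists was not tested.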

How the data were processed

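RNA of sorted DP cells was depleted of ribosomal RNA and made into directional libraries. The authors trimmed reads (Trimmomatic), aligned them (TopHat2, mm10), counted reads per gene (HTSeq) and scaled the counts by DESeq2, whose version is not given in the sources used here. The deposited signal is this normalized read number per gene and library. The authors' mean over all libraries and their columns of fold changes and p-values were left out. Whole reads were recovered for 100% of the values (tolerance 0.001), and no replicate was a copy of another (chi-square per gene 10.4 to 1485.3).

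The members and gene lists were chosen with earlier results of these data known. One further gene list is not reported here. Groups were compared with limma 3.58.1 (trend, two-sided, Benjamini-Hochberg over all genes tested, threshold 0.05) in R 4.3.3 on log2(normalized reads + 1), keeping genes whose mean over the fitted libraries reached 10, and this scale understates the change of low genes. p-values measure the spread between these mice, and the labels do not give litters. A value of 0 allows up to 3 reads. Alternatives were a pseudocount of 10, no filter, limma on log2-CPM with TMM, edgeR 4.0.16 and DESeq2 1.42.0 on the recovered reads, a replicate block, a single fit over all libraries, a threshold of 0.01 and leaving out each library. The scripts were tested on simulated data.

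Values per library are given for the member of each role with the highest control mean, the called members with the largest rise and fall per role at P24 and P28, and those called at P20 or for a difference between effects. Values per library of other members were chosen after they were seen. Levels per kilobase used exon lengths of the GENCODE annotation.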

Additional observations from a re-analysis of the deposited data

Results flagged for a closer look

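For 21 members the dM1/2 difference itself differed between anagen and telogen by the limma test of that difference over 24 libraries. Log2 values of the anagen difference minus the telogen difference were positive for Plxnc1 (2.62), Efna3 (2.25), Sema5a (1.40), Sema6b (1.28), Sema7a (1.26), Plxna4 (1.23), Sema6d (0.91), Efnb2 (0.81), Ephb6 (0.76), Sema4g (0.72), Sema6c (0.65), Efna1 (0.64) and Plxna3 (0.48). They were negative for Sema3g (-2.01), Sema4f (-1.61), Epha3 (-1.31), Sema4a (-1.25), Efna5 (-1.11), Efnb1 (-1.01), Plxnd1 (-0.81) and Sema4b (-0.77). Of the 21, 17 kept the call without each library in turn, and Sema4f, Sema4g, Sema5a and Plxna3 did not. The anagen difference is the mean of those at P24 and P28, which were not alike for every member. Sema5a, Sema7a and Efna1 were called at P28 alone, and Sema4a, Sema4b, Sema4f and Efnb1 at P24 alone. Sema5a was lower in dM1/2 at P24, though not called. Sema4g differed by log2 1.53 at P20 and 1.52 at P24. Plxnd1 passed this test though it passed at neither anagen age alone, with 3243, 1853 and 2163 normalized reads in P20 controls and 4007, 3331 and 3054 in P20 dM1/2.

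For 3 members the change from P24 to P28 differed between dM1/2 and control by the limma test of that difference over 12 libraries. The change in dM1/2 minus that in control was 2.84 on the log2 scale for Sema7a, 2.27 for Epha2 and 0.96 for Sema6a.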

How the results depend on the processing

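Counts of called members at P28 and for control anagen against telogen stayed within 1.5 times under every alternative run, with 18 to 29 at P28 and 29 to 37 for the stages without each library in turn. At an adjusted p under 0.01 the counts were 0 at P20, 15 at P24, 0 for control P28 minus P24, 2 for dM1/2 P28 minus P24, 1 for the difference of these changes, 2 for control P60 minus P20 and 13 for the anagen effect minus the telogen effect. At P20 limma on log2-CPM and edgeR each called 2 and DESeq2 called 7, and without each library in turn 0 to 11 were called. DESeq2 called 1 at P60, 11 for control P28 minus P24 and 6 for the difference of changes. For control P28 minus P24 edgeR called 1, the fit without a filter 1 and the single fit over 24 libraries 10, with 0 to 1 without each library. For dM1/2 P28 minus P24 the single fit called 1, and 2 to 8 were called without each library. Without each library 1 to 3 were called for the difference of changes and 3 to 11 for control P60 minus P20.

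The replicate numbers did not pair the libraries, since no pair of groups had all same-number correlations over 0.1, and a library did not always correlate best with its own number. With the replicate block 6 members were called at P20, 17 at P24, 20 at P28, 0 for control P28 minus P24, 0 for the difference of changes and 4 for control P60 minus P20.

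Without each library in turn, differences that did not pass at P28 ran through 0, from -1.29 to 0.10 for Sema3a, -1.66 to 0.09 for Sema3b and -1.80 to 0.01 for Sema3c. At P24 they did so from -0.83 to 0.12 for Sema3c and -0.57 to 0.17 for Epha2. Of the calls of single members, 15 of 25 at P24, 16 of 22 at P28 and 13 of 21 for the difference of effects held under all alternatives and left-out libraries. Depth was 8171944 to 13369732 reads in telogen and 35469841 to 49331751 in anagen libraries, so low members are measured less well at P20 and P60.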
